A study of Mus musculus with 24 samples.

Results

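The 10 genes described here belong to the integrated stress response: Atf4, Ddit3, Atf3, Trib3, Nupr1, Asns, Psat1, Chac1, Sesn2 and Ddit4. Their probes were found on Agilent mouse arrays through the transcript accession printed for each probe, which gave 12 probes for the 10 genes. All 12 probes were well above background on all 24 arrays, so no gene of the group was lost to the filter on dim probes, and the 10 genes are 10 of 20209 features tested. The group was put together with results of these arrays known, and Asns and Trib3 had already been seen to be higher without stimulation in cells lacking Irf5. The levels of all 10 genes without stimulation are therefore given as a description, with no test between genotypes. Tests are given for the response to CpG-B and for the genotypes compared after CpG-B. For Asns and Trib3, the tests of Irf5 loss after CpG-B are not independent of that choice.

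The cells were dendritic cells grown for 9 days from mouse bone marrow with human Flt3 ligand at 100 ng/ml, all on a C57BL/6 background. The 4 genotypes were DKO, which lacks both Lyn and Irf5, then Lyn-KO, Irf5-KO and wild type (WT). Lyn is a Src-family tyrosine kinase, and Irf5 is a transcription factor that acts downstream of Toll-like receptors. Cells of each genotype received 150 nM of CpG-B ODN (1668), a synthetic DNA sensed by Toll-like receptor 9, for 6 h, or were left unstimulated. This gave 8 groups of 3 arrays, which the labels call biological triplicates. The sources used here give neither how the 2 genes were inactivated nor the sex and age of the mice.

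The integrated stress response is the common output of the kinases that phosphorylate the translation factor eIF2alpha when amino acids run short, when unfolded proteins build up in the endoplasmic reticulum, when haem is lacking or when double-stranded RNA is present. Phosphorylated eIF2alpha slows most protein synthesis but lets the mRNA of Atf4, a transcription factor, be translated better. ATF4 and its target CHOP, the product of Ddit3, then switch on genes of amino acid synthesis, amino acid import and tRNA charging, together with genes that restrain the response again. In dendritic cells the same machinery is known to be engaged during activation by microbial ligands, when protein secretion and amino acid use change. Array signals report mRNA only, so the step at which Atf4 is mainly controlled, translation, was not measured.

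A shared DNA element was looked for in the promoters, because several of the genes moved together in the arrays. Such genes are known to carry a composite element bound by ATF4 with a C/EBP partner, and the letters TGATGNAA were searched on both strands from 250 bases before to 50 bases after each transcript start (RefSeq, build GRCm38.p6). All 10 genes had an entry, and 5 of them held the letters, against 4.51% of 27025 genes with such an entry. The 5 promoters are printed 5′ to 3′ on the strand of the gene, with the match in capitals, which is the reverse complement of the searched letters in all but Asns.
Asns, chr6:7693160-7693459, minus strand: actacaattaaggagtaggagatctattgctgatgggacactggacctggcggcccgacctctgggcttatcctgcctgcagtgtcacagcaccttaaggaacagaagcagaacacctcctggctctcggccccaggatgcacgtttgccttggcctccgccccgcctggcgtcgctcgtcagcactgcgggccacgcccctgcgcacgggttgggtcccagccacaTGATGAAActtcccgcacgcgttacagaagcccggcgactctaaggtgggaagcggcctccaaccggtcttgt
Trib3, chr2:152344011-152344310, minus strand: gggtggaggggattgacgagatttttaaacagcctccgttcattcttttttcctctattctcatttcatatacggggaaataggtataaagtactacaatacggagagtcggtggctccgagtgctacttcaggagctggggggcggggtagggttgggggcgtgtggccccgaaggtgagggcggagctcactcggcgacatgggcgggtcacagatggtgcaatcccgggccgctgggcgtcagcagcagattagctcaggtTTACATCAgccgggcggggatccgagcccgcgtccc
Chac1, chr2:119350992-119351291, plus strand: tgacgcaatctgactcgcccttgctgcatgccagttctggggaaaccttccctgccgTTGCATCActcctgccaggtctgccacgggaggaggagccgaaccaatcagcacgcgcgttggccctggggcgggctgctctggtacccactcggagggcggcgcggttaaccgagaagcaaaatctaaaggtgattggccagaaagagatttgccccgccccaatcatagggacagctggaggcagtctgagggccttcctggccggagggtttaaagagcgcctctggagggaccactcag
Atf3, chr1:191183284-191183583, minus strand: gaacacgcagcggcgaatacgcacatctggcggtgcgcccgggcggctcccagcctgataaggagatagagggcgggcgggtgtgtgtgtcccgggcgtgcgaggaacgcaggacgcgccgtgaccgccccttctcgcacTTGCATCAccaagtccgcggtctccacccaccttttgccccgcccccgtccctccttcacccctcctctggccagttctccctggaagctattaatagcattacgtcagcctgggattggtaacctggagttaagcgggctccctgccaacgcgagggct
Nupr1, chr7:126625421-126625720, minus strand: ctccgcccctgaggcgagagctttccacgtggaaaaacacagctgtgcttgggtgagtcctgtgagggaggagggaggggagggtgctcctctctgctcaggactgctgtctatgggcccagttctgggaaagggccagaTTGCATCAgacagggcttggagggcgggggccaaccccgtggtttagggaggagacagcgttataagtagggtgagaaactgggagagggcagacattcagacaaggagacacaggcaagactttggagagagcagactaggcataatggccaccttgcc
Counted from the start of the transcript, the match began at -23 in Asns, at 15 in Trib3, at -193 in Chac1 and at -110 in both Atf3 and Nupr1. Read in the orientation of the element, the letters were TGATGAAA in Asns, TGATGTAA in Trib3 and TGATGCAA in Chac1, Atf3 and Nupr1. The windows of Ddit3, Atf4, Sesn2, Psat1 and Ddit4 did not hold these letters. The core of the interferon-stimulated response element, a pair of GAAA blocks with 2 bases between them, was searched in the same way and was in 0 of the 10 genes, against 3.99% of all genes. These matches describe sequence only. In the data below, Asns, Trib3 and Chac1 were all higher in cells lacking Irf5 after CpG-B, whereas of Atf3 and Nupr1, which hold the same letters at the same distance, the first was not called and the other was lower.

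Levels are given as log2 of the processed signal relative to the 75th percentile of the array, so a level of 0 means a signal equal to that percentile, and a difference of 1 means a 2-fold change. Levels of different genes come from different probes and cannot be ranked against each other. Of 59305 spots per array, the share well above background ranged between 41.0% and 53.8%, and replicate arrays correlated at 0.991 to 0.996 across features, which are not independent. The Lyn probe averaged -1.10 in DKO, -0.23 in Lyn-KO, 1.48 in Irf5-KO and 2.21 in WT cells with CpG-B. With CpG-B the Irf5 probe averaged 5.25 in DKO, 4.49 in Lyn-KO, 4.80 in Irf5-KO and 4.16 in WT cells, so it was higher in the cells labelled as lacking Irf5. Unstimulated, it averaged 4.54 in DKO, 4.83 in Lyn-KO, 4.43 in Irf5-KO and 4.73 in WT cells, and the arrays labelled as lacking Irf5 lay below the others. The sources used here do not say whether this probe lies in the deleted part of Irf5, and its level therefore checks no label. Shared dendritic cell markers (6 of 6) and markers of plasmacytoid dendritic cells (9 of 9) were well above background in every group. Each slide held 1 array of every group, and differences within slides 1, 2 and 3 stand in square brackets. In mixed cultures, fewer cells of a type and less RNA per cell cannot be told apart. The plot of levels shows all 10 genes on all 24 arrays.

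**Figure D1:**
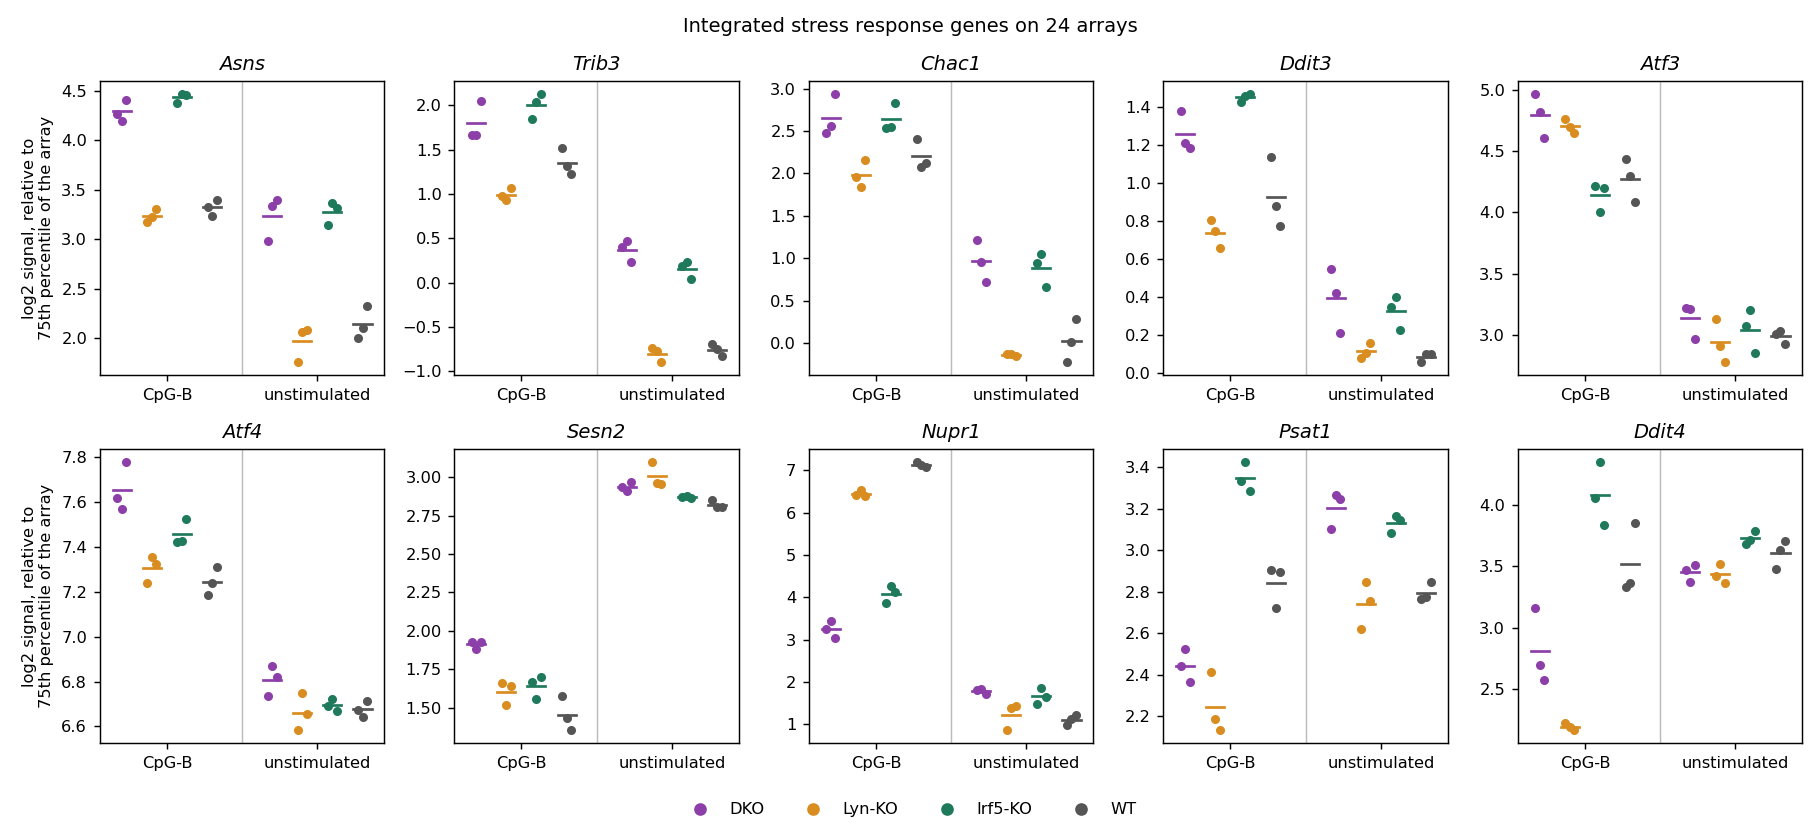
Level of each of the 10 genes on each array (log2 of the processed signal relative to the 75th percentile of the array, vertical axis, with its own range per gene), with CpG-B at left and unstimulated at right, and the genotypes DKO, Lyn-KO, Irf5-KO and WT in colour. Points are arrays (3 per group) and short lines are group means; Asns, Trib3 and Chac1 stand higher in DKO and Irf5-KO than in Lyn-KO and WT cells in both conditions, while Nupr1 after CpG-B stands lower.

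CpG-B changed most of these genes in all 4 genotypes. In WT cells 7 of the 10 rose, 1 fell and 2 were not called (adjusted p of 0.05 in limma over all 20209 features), against 68.5% of all features called, 31.2% higher and 37.2% lower. The counts were 9 higher and 1 lower in Irf5-KO cells (66.8% of all features called, 31.6% higher and 35.2% lower), 7 higher and 3 lower in Lyn-KO cells (68.9%, 32.8% higher and 36.1% lower), and 7 higher and 3 lower in DKO cells (70.5%, 34.6% higher and 35.9% lower). With most features called, a call by itself says little about these genes, and the sizes below carry the description. The median difference over the 10 genes was 0.96 in DKO, 0.96 in Lyn-KO, 1.11 in Irf5-KO and 1.01 in WT cells, against 0.02, -0.01, -0.02 and -0.03 over all features. Sesn2 fell in every genotype. Ddit4 and Psat1 were not called in WT cells, were called higher in Irf5-KO cells and fell in Lyn-KO and DKO cells. The 2 rises in Irf5-KO cells were small and lost their calls under several alternatives, given below.

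**Figure D2:**
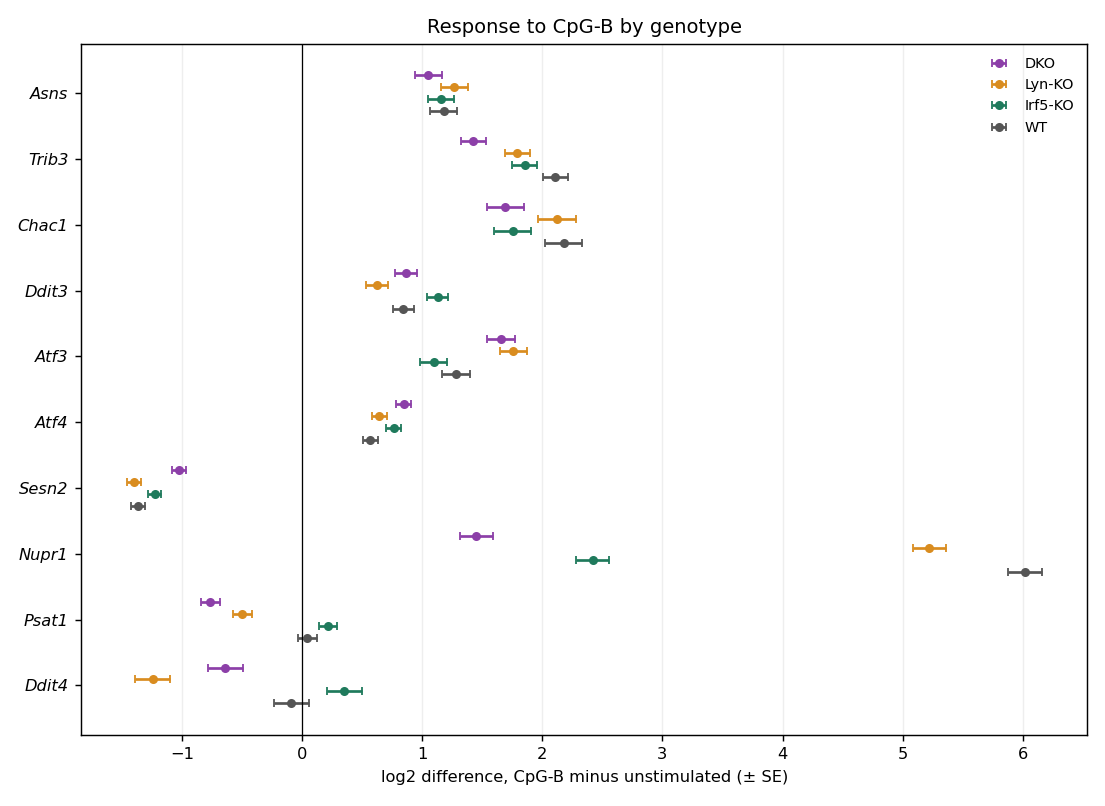
Difference between CpG-B and unstimulated cells (log2, horizontal axis, ± SE of the limma fit, 3 arrays per group) for each gene in DKO, Lyn-KO, Irf5-KO and WT cells. Asns rises by 1.05 to 1.27 in all 4 genotypes and Sesn2 falls in all 4, while Nupr1 ranges between 1.45 in DKO and 6.02 in WT cells.

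Among the transcription factors, Atf4 rose with CpG-B in every genotype by less than 1 log2 unit. With CpG-B its level was 7.62, 7.57 and 7.78 in DKO, 7.24, 7.36 and 7.32 in Lyn-KO, 7.42, 7.43 and 7.52 in Irf5-KO, and 7.18, 7.24 and 7.31 in WT cells. Unstimulated levels lay between 6.58 and 6.87 over all 12 arrays, below every CpG-B array. CpG-B raised Atf4 by 0.85 ± 0.06 in DKO, 0.64 ± 0.06 in Lyn-KO, 0.76 ± 0.06 in Irf5-KO and 0.57 ± 0.06 in WT cells (log2 ± SE, here and below), with adjusted p of at most 8.1e-08. After CpG-B it was higher in DKO than in Lyn-KO cells by 0.35 ± 0.06 (adjusted p = 0.000168 [0.38, 0.21, 0.45]) and in Irf5-KO than in WT cells by 0.21 ± 0.06 (adjusted p = 0.0134 [0.24, 0.19, 0.21]). The call against WT ended when replicate 3 of Irf5-KO (0.18) or replicate 1 of WT (0.18) was left out. A second Atf4 probe gave 0.35 ± 0.12 (adjusted p = 0.0371) for DKO against Lyn-KO and 0.16 ± 0.12 (adjusted p = 0.385) for Irf5-KO against WT.

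Ddit3 encodes CHOP, a transcription factor downstream of ATF4. Its level with CpG-B was 1.38, 1.21 and 1.19 in DKO and 0.81, 0.75 and 0.66 in Lyn-KO cells. It was 1.43, 1.46 and 1.47 in Irf5-KO and 1.14, 0.88 and 0.77 in WT cells. Every array without Irf5 lay above every array with Irf5 after CpG-B. The difference was 0.52 ± 0.09 both for DKO against Lyn-KO (adjusted p = 0.000131 [0.57, 0.47, 0.53]) and for Irf5-KO against WT (adjusted p = 0.000182 [0.29, 0.58, 0.69]), a 1.44-fold difference in each. Without stimulation the levels were 0.55, 0.42 and 0.21 in DKO, 0.08, 0.10 and 0.16 in Lyn-KO, 0.35, 0.40 and 0.23 in Irf5-KO, and 0.06, 0.10 and 0.10 in WT cells. These groups did not overlap either, with differences of 0.28 and 0.24. CpG-B raised Ddit3 by 0.62 ± 0.09 in Lyn-KO cells and by 0.84 to 1.13 in the other genotypes.

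Atf3, a stress-induced transcription factor known in macrophages to dampen cytokine genes, was higher in cells lacking Lyn. After CpG-B its level was 4.96, 4.82 and 4.61 in DKO, 4.76, 4.70 and 4.65 in Lyn-KO, 4.22, 4.0 and 4.20 in Irf5-KO, and 4.43, 4.30 and 4.09 in WT cells. All arrays without Lyn lay above all arrays with Lyn. The difference was 0.66 ± 0.12 for DKO against Irf5-KO (adjusted p = 0.0002 [0.75, 0.82, 0.41]) and 0.43 ± 0.12 for Lyn-KO against WT (adjusted p = 0.00969 [0.33, 0.40, 0.56]). The call against WT ended without replicate 3 of the WT arrays (0.34, adjusted p = 0.0632). Loss of Irf5 gave 0.09 ± 0.12 for DKO against Lyn-KO (adjusted p = 0.624) and -0.13 ± 0.12 for Irf5-KO against WT (adjusted p = 0.46). Unstimulated levels of the 4 genotypes overlapped, between 2.78 and 3.22.

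Trib3 stood higher in cells lacking Irf5 with and without CpG-B. It is a pseudokinase that is induced by ATF4 and CHOP and is known to restrain them. CpG-B-treated cells had levels of 1.67, 1.67 and 2.05 in DKO, 0.97, 0.93 and 1.07 in Lyn-KO, 1.85, 2.04 and 2.12 in Irf5-KO, and 1.52, 1.32 and 1.23 in WT cells. Without stimulation it was 0.40, 0.47 and 0.24 in DKO, -0.73, -0.77 and -0.89 in Lyn-KO, 0.18, 0.23 and 0.04 in Irf5-KO, and -0.69, -0.74 and -0.83 in WT cells. In both conditions all arrays without Irf5 lay above all arrays with Irf5. After CpG-B the difference was 0.80 ± 0.10 for DKO against Lyn-KO (adjusted p = 7.25e-06 [0.70, 0.73, 0.98]) and 0.65 ± 0.10 for Irf5-KO against WT (adjusted p = 0.000111 [0.33, 0.72, 0.90]). Without stimulation the same differences were 1.17 and 0.91. CpG-B raised Trib3 by 1.43 ± 0.10 in DKO, 1.79 ± 0.10 in Lyn-KO, 1.85 ± 0.10 in Irf5-KO and 2.11 ± 0.10 in WT cells. Trib3 was also lower in Lyn-KO than in WT cells after CpG-B, by -0.36 ± 0.10 (adjusted p = 0.015), a call that ended without replicate 1 of the WT arrays (-0.28) or without replicate 2 of the Lyn-KO arrays (-0.33).

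Asns encodes asparagine synthetase, which makes asparagine from aspartate and glutamine. Asns levels with CpG-B were 4.27, 4.20 and 4.41 in DKO, 3.18, 3.23 and 3.31 in Lyn-KO, 4.38, 4.46 and 4.46 in Irf5-KO, and 3.33, 3.24 and 3.40 in WT cells. Without stimulation it was 2.98, 3.34 and 3.40 in DKO, 1.76, 2.06 and 2.08 in Lyn-KO, 3.14, 3.36 and 3.32 in Irf5-KO, and 2.00, 2.10 and 2.33 in WT cells. In each condition the lowest array without Irf5 lay above the highest array with Irf5, and the ranges of unstimulated DKO and Irf5-KO cells met those of CpG-B-treated Lyn-KO and WT cells. After CpG-B, Asns was 2.08-fold higher in DKO than in Lyn-KO cells (1.05 ± 0.11, adjusted p = 5.08e-07 [1.09, 0.97, 1.10]). It was 2.16-fold higher in Irf5-KO than in WT cells (1.11 ± 0.11, adjusted p = 4.39e-07 [1.05, 1.22, 1.05]). Without stimulation the differences were 1.27 [1.22, 1.27, 1.32] and 1.13 [1.14, 1.27, 0.99]. CpG-B raised Asns by 1.05 ± 0.11 in DKO, 1.27 ± 0.11 in Lyn-KO, 1.16 ± 0.11 in Irf5-KO and 1.18 ± 0.11 in WT cells. Loss of Lyn gave -0.14 ± 0.11 for DKO against Irf5-KO (adjusted p = 0.361) and -0.08 ± 0.11 for Lyn-KO against WT (adjusted p = 0.628) after CpG-B. Asns lies on chromosome 6, which also carries Irf5, and Sesn2 lies on chromosome 4, which also carries Lyn. Trib3 and Chac1 lie on chromosome 2.

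Chac1 encodes an enzyme that breaks down glutathione and is induced through ATF4 and CHOP. With CpG-B its level was 2.48, 2.56 and 2.93 in DKO, 1.95, 1.84 and 2.16 in Lyn-KO, 2.54, 2.55 and 2.83 in Irf5-KO, and 2.41, 2.07 and 2.12 in WT cells. Without stimulation it was 1.22, 0.95 and 0.72 in DKO, -0.13, -0.13 and -0.15 in Lyn-KO, 0.94, 1.05 and 0.66 in Irf5-KO, and -0.23, 0.01 and 0.28 in WT cells. The arrays without Irf5 lay above those with Irf5 in both conditions, by a narrow gap against WT after CpG-B. The difference with CpG-B was 0.67 ± 0.15 for DKO against Lyn-KO (adjusted p = 0.0023 [0.53, 0.72, 0.77]) and 0.44 ± 0.15 for Irf5-KO against WT (adjusted p = 0.0447 [0.12, 0.48, 0.71]). The call against WT is at the threshold and ended when any of 13 of the 24 arrays was left out, 5 of them WT or Irf5-KO arrays with CpG-B: the values ran between 0.34 and 0.49, with adjusted p between 0.0503 and 0.174. Those 5 were replicates 1, 2 and 3 of Irf5-KO and replicates 2 and 3 of WT, and the other 8 belong to groups outside the comparison and change only the shared estimate of the spread. Without stimulation the differences were 1.10 and 0.86. CpG-B raised Chac1 by 1.69 ± 0.15 in DKO, 2.12 ± 0.15 in Lyn-KO, 1.76 ± 0.15 in Irf5-KO and 2.18 ± 0.15 in WT cells.

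Nupr1, a small stress-induced nuclear protein of transcription, had the largest response of the 10 genes in Lyn-KO, Irf5-KO and WT cells, and was the 1 gene called lower with loss of Irf5. Its level with CpG-B was 3.25, 3.43 and 3.04 in DKO, 6.41, 6.54 and 6.38 in Lyn-KO, 3.85, 4.27 and 4.13 in Irf5-KO, and 7.19, 7.13 and 7.07 in WT cells. Without stimulation it was 1.81, 1.85 and 1.72 in DKO, 0.87, 1.39 and 1.42 in Lyn-KO, 1.49, 1.85 and 1.65 in Irf5-KO, and 0.98, 1.14 and 1.23 in WT cells. After CpG-B the 4 genotypes did not overlap, in the order DKO, Irf5-KO, Lyn-KO and WT, lowest to highest. Nupr1 was 9.22-fold lower in DKO than in Lyn-KO cells (-3.21 ± 0.14, adjusted p = 5.06e-12 [-3.16, -3.11, -3.34]). It was 8.26-fold lower in Irf5-KO than in WT cells (-3.05 ± 0.14, adjusted p = 1.67e-11 [-3.34, -2.87, -2.94]). Nupr1 was lower with loss of Lyn too, by -0.84 ± 0.14 for DKO against Irf5-KO (adjusted p = 9.6e-05) and by -0.69 ± 0.14 for Lyn-KO against WT (adjusted p = 0.00104). Without stimulation the arrays lacking Irf5 lay above those with it, by 0.56 and 0.55, opposite to their order after CpG-B. CpG-B raised Nupr1 2.73-fold in DKO, 37.3-fold in Lyn-KO, 5.36-fold in Irf5-KO and 64.8-fold in WT cells. The change of the response with loss of Irf5 was not tested, since it uses the unstimulated arrays that chose the genes.

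Psat1 encodes phosphoserine aminotransferase, an enzyme of serine synthesis. Its level with CpG-B was 2.44, 2.52 and 2.36 in DKO, 2.41, 2.19 and 2.13 in Lyn-KO, 3.33, 3.42 and 3.29 in Irf5-KO, and 2.91, 2.72 and 2.89 in WT cells. Without stimulation it was 3.10, 3.26 and 3.25 in DKO, 2.62, 2.85 and 2.75 in Lyn-KO, 3.08, 3.16 and 3.15 in Irf5-KO, and 2.76, 2.77 and 2.85 in WT cells. CpG-B thus left both genotypes without Lyn below both genotypes with Lyn. Psat1 was lower in DKO than in Irf5-KO cells by -0.90 ± 0.08 (adjusted p = 4.94e-08 [-0.89, -0.90, -0.92]) and in Lyn-KO than in WT cells by -0.59 ± 0.08 (adjusted p = 1.29e-05 [-0.49, -0.53, -0.76]). With loss of Irf5 it was higher by 0.51 ± 0.08 in Irf5-KO against WT (adjusted p = 6.84e-05 [0.43, 0.70, 0.39]). In DKO against Lyn-KO the difference was 0.20 ± 0.08 (adjusted p = 0.0611), a call gained without replicate 3 of the DKO arrays (0.24) or replicate 1 of the Lyn-KO arrays (0.28). A second Psat1 probe gave 0.50 ± 0.14 (adjusted p = 0.0124) and 0.43 ± 0.14 (adjusted p = 0.0233) for the same 2 comparisons, and -0.77 ± 0.14 and -0.70 ± 0.14 for loss of Lyn.

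Ddit4 and Sesn2 both restrain mTORC1, the kinase that drives growth when amino acids are plentiful: Ddit4 (REDD1) through the TSC complex, and Sesn2 as a sensor of leucine. The level of Ddit4 with CpG-B was 3.16, 2.70 and 2.58 in DKO, 2.22, 2.19 and 2.17 in Lyn-KO, 4.05, 4.35 and 3.84 in Irf5-KO, and 3.33, 3.36 and 3.85 in WT cells. Unstimulated levels were 3.47, 3.37 and 3.51 in DKO, 3.42, 3.52 and 3.37 in Lyn-KO, 3.68, 3.71 and 3.79 in Irf5-KO, and 3.48, 3.63 and 3.71 in WT cells. Lyn-KO cells with CpG-B were the lowest group, and all DKO arrays with CpG-B also lay below every array of Irf5-KO and WT cells. Ddit4 was lower in DKO than in Irf5-KO cells by -1.27 ± 0.15 (adjusted p = 1.82e-06 [-0.89, -1.65, -1.26]) and in Lyn-KO than in WT cells by -1.32 ± 0.15 (adjusted p = 1.91e-06 [-1.11, -1.17, -1.69]). With loss of Irf5 it was higher by 0.62 ± 0.15 in DKO against Lyn-KO (adjusted p = 0.00281 [0.94, 0.51, 0.41]). In Irf5-KO against WT the difference was 0.56 ± 0.15 (adjusted p = 0.00748 [0.72, 0.98, -0.01]), but the groups overlapped, slide 3 showed no difference, and the call ended without replicate 2 of the Irf5-KO arrays (0.43, adjusted p = 0.0537). CpG-B lowered Ddit4 by -0.64 ± 0.15 in DKO (adjusted p = 0.000725) and by -1.24 ± 0.15 in Lyn-KO cells (adjusted p = 3.64e-07), and gave -0.09 ± 0.15 in WT cells (adjusted p = 0.603). The rise in Irf5-KO cells, 0.35 ± 0.15 (adjusted p = 0.0413, or 0.0542 with the replicate number as a block), ended without any 1 of 5 of its 6 arrays, that is all but replicate 3 with CpG-B, and was 0.22 without replicate 2 with CpG-B and 0.17 after quantile normalisation. The small rise of Psat1 in Irf5-KO cells, 0.22 ± 0.08 (adjusted p = 0.02), ended without replicate 1 of the unstimulated arrays (0.19) or replicate 2 with CpG-B (0.18), was 0.08 after quantile normalisation (adjusted p = 0.297), and the second Psat1 probe gave 0.05 ± 0.14 (adjusted p = 0.775).

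Sesn2 was the 1 gene that CpG-B lowered in every genotype. Its level with CpG-B was 1.93, 1.88 and 1.92 in DKO, 1.66, 1.51 and 1.64 in Lyn-KO, 1.67, 1.56 and 1.70 in Irf5-KO, and 1.58, 1.43 and 1.36 in WT cells. Unstimulated levels ran between 2.80 and 3.10 over all 12 arrays, above every CpG-B array. The fall was -1.03 ± 0.06 in DKO, -1.40 ± 0.06 in Lyn-KO, -1.23 ± 0.06 in Irf5-KO and -1.37 ± 0.06 in WT cells. After CpG-B, DKO arrays lay above all others, by 0.31 ± 0.06 against Lyn-KO (adjusted p = 0.000398) and 0.27 ± 0.06 against Irf5-KO cells (adjusted p = 0.0013). The difference of 0.19 ± 0.06 between Irf5-KO and WT cells (adjusted p = 0.0209) came from overlapping groups. It lost its call when replicate 1 or 3 of Irf5-KO or replicate 2 or 3 of WT was left out, with values of 0.14 to 0.18.

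Counted over the group, loss of Irf5 after CpG-B was followed by higher levels of most of the genes. Of the 10, 8 were higher and 1 lower in Irf5-KO than in WT cells (25.5% of all features called, 14.4% higher and 11.1% lower), and the count in DKO against Lyn-KO cells was 7 higher and 1 lower (31.5% called, 16.8% higher and 14.7% lower). These 2 comparisons share no array. The members called higher in both were Asns, Trib3, Chac1, Ddit3, Atf4, Sesn2 and Ddit4, which is all 7 of the second list and 7 of the 8 in the first, and Nupr1 was lower in both. The median over the 10 genes was 0.47 in Irf5-KO against WT and 0.44 in DKO against Lyn-KO, beside 0.02 and 0.01 over all features. When only the 6 Irf5-KO and WT arrays with CpG-B were fitted, 5 genes were called, 4 higher and 1 lower. Without stimulation, 7 of the 10 genes did not overlap between Irf5-KO and WT cells (18% of all features) and 6 between DKO and Lyn-KO cells (12.3%), all with the higher level in the cells lacking Irf5. That condition chose Asns and Trib3, so its counts are only a description. The counts with CpG-B hold Asns and Trib3 too, which were higher without Irf5 in both conditions. In Irf5-KO against WT cells Asns was at 1.11 with CpG-B and 1.13 without, and in DKO against Lyn-KO cells at 1.05 and 1.27. The counts with CpG-B are therefore not independent of that choice.

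**Figure D3:**
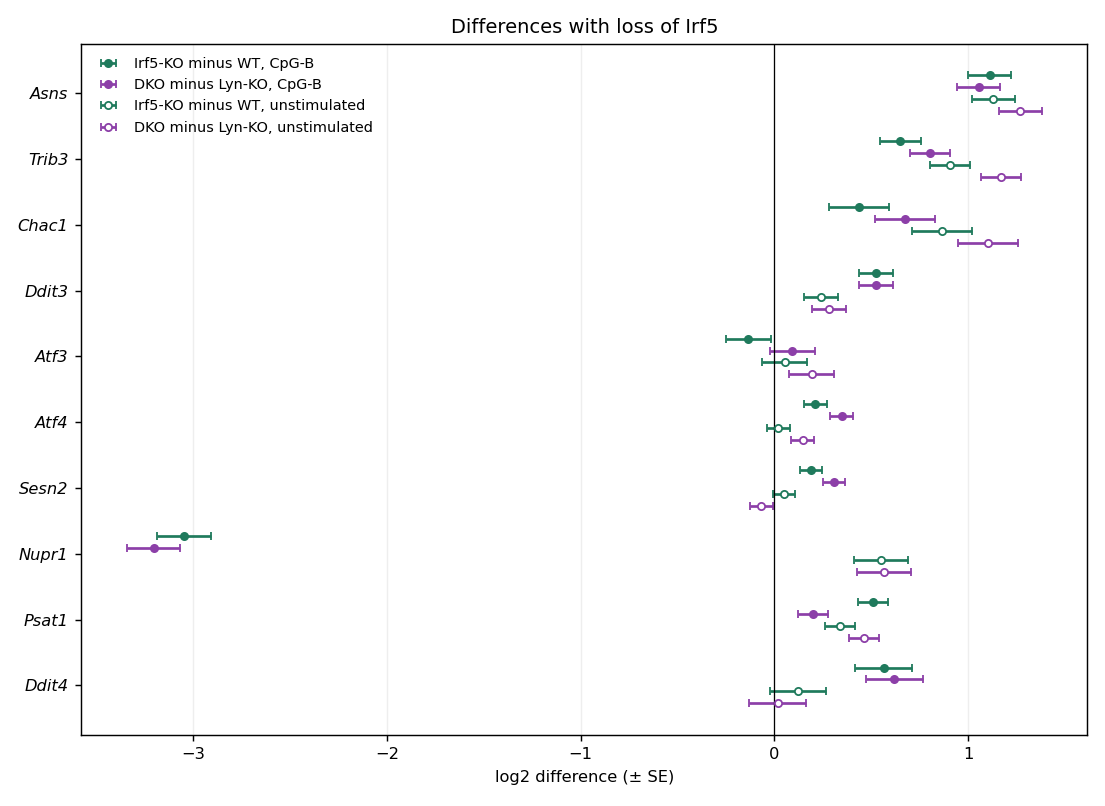
Differences with loss of Irf5 (log2, horizontal axis, ± SE of the limma fit, 3 arrays per group) for Irf5-KO minus WT and DKO minus Lyn-KO cells, filled with CpG-B and open without stimulation. Asns lies between 1.05 and 1.27 in all 4 comparisons, and Nupr1 lies near -3 with CpG-B and above 0 without.

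Markers of other cell types moved with the same comparison. Over all features, 16.8% were higher and 14.7% lower in DKO against Lyn-KO cells, and 14.4% and 11.1% in Irf5-KO against WT cells. The shares in DKO against Irf5-KO cells were 18.1% and 14.9%. The mean level of 9 monocyte and macrophage markers was 0.79 to 1.35 in DKO, 0.10 to 0.32 in Lyn-KO, 0.99 to 1.31 in Irf5-KO and 0.06 to 0.41 in WT cells with CpG-B, with 8 of 9 markers well above background in every group. Of them 5 were called higher and 0 lower both in DKO against Lyn-KO and in Irf5-KO against WT. Without stimulation their mean ran between 0.34 and 0.86 in DKO, 0.22 and 0.39 in Lyn-KO, 0.72 and 1.11 in Irf5-KO, and 0.46 and 0.66 in WT cells. The mean of 9 B lineage markers was -0.96 to -0.72 in DKO, -0.63 to -0.49 in Lyn-KO, 1.18 to 1.42 in Irf5-KO and 0.70 to 0.89 in WT cells with CpG-B. Of 7 basophil or mast cell markers that passed the filter, of 8 listed, 5 were higher and 0 lower in DKO cells, against Lyn-KO and against Irf5-KO cells alike, and 0 were higher and 2 lower in Irf5-KO against WT cells. The mean level of all 8 listed with CpG-B was -0.27 to -0.04 in DKO, -1.30 to -1.01 in Lyn-KO, -1.59 to -0.97 in Irf5-KO and -0.996 to -0.56 in WT cells. That mean includes Ms4a2, which was well above background on 0 arrays. Of 9 markers of plasmacytoid dendritic cells 0 were higher and 3 lower in DKO against Lyn-KO cells, and 0 higher and 4 lower in Irf5-KO against WT cells. Their mean with CpG-B was 5.11 to 5.25 in DKO, 5.66 to 5.82 in Lyn-KO, 4.46 to 4.66 in Irf5-KO and 5.14 to 5.34 in WT cells, without overlap in either comparison. The median difference of the 9 markers was small, at -0.09 in DKO against Lyn-KO and -0.06 in Irf5-KO against WT cells. Single markers ran between -3.17 and 0.26 in the first and between -3.14 and 0.03 in the second, so the means do not describe a typical marker. Of 6 measured markers of type 1 conventional dendritic cells, of 7 listed, 3 were higher and 2 lower in DKO against Lyn-KO cells, and 2 higher and 2 lower in Irf5-KO against WT cells. The part of these cells in the levels of the 10 genes was not tested.

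Loss of Lyn after CpG-B was followed by changes in both directions. In Lyn-KO against WT cells 1 of 10 was higher, Atf3, and 4 were lower, Trib3, Nupr1, Psat1 and Ddit4 (25.2% of all features called, 13.9% higher and 11.2% lower). In DKO against Irf5-KO cells 3 were higher, Atf3, Atf4 and Sesn2, and 3 were lower, Nupr1, Psat1 and Ddit4 (33% called, 18.1% higher and 14.9% lower). Not called in either comparison were Asns, Chac1 and Ddit3. Asns was at -0.14 ± 0.11 in DKO against Irf5-KO and -0.08 ± 0.11 in Lyn-KO against WT cells. In the same order Chac1 was at 0.02 ± 0.15 and -0.22 ± 0.15, and Ddit3 was at -0.19 ± 0.09 in both. Trib3 was at -0.21 ± 0.10 in DKO against Irf5-KO cells (adjusted p = 0.14), a call gained without replicate 3 of DKO (-0.34). In Lyn-KO against WT cells Atf4 was at 0.06 ± 0.06 (adjusted p = 0.507) and Sesn2 at 0.15 ± 0.06 (adjusted p = 0.065). Ddit3 was called in that comparison without replicate 3 of WT (-0.27), and Sesn2 without replicate 1 of WT or replicate 2 of Lyn-KO. The call for Atf4 in DKO against Irf5-KO cells, 0.20 ± 0.06 (adjusted p = 0.0158), ended when replicate 1 or 2 of Irf5-KO or replicate 3 of DKO was left out (0.14 to 0.18). It also ended when only those groups were fitted (adjusted p = 0.123) and when dim probes were kept (adjusted p = 0.0566). The second Atf4 probe gave 0.23 ± 0.12 (adjusted p = 0.181) for DKO against Irf5-KO cells. These 2 comparisons share no array either. Without stimulation 1 of 10 genes, Sesn2, did not overlap between Lyn-KO and WT cells (2.96 to 3.10 against 2.80 to 2.85), where 21% of all features did not. Between unstimulated DKO and Irf5-KO cells 4 of 10 genes did not overlap, where 25.5% of all features did not. Trib3, Atf4 and Sesn2 were the 3 higher in DKO cells, by 0.22, 0.11 and 0.07, and Ddit4 was the 1 lower.

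Whether the response itself differed with loss of Lyn was tested as the difference of 2 responses, a test added after the data had been seen. In Lyn-KO minus WT cells the response of Ddit4 was lower by -1.15 ± 0.21 (adjusted p = 0.000985), that of Nupr1 by -0.80 ± 0.20 (adjusted p = 0.0114) and that of Psat1 by -0.54 ± 0.11 (adjusted p = 0.00274), with 11.1% of all features called, 6.05% higher and 5.02% lower. In DKO minus Irf5-KO cells it was lower by -0.99 ± 0.21 for Ddit4 (adjusted p = 0.00214), -0.97 ± 0.20 for Nupr1 (adjusted p = 0.00161) and -0.98 ± 0.11 for Psat1 (adjusted p = 5.01e-06), with 17.6% called, 8.57% higher and 8.99% lower. Every slide gave the same sign for these 3 genes in both genotypes. Atf3 gave 0.56 ± 0.16 (adjusted p = 0.0216) in DKO minus Irf5-KO and 0.48 ± 0.16 (adjusted p = 0.0717, or 0.0113 with the replicate number as a block) in Lyn-KO minus WT cells. The first of these calls ended without replicate 1 with CpG-B or 3 unstimulated of DKO, or without replicate 2 of either Irf5-KO group (0.48 to 0.50), and the other was gained without replicate 1 of unstimulated Lyn-KO (0.57) or of WT with CpG-B (0.56). Trib3 gave -0.43 ± 0.15 (adjusted p = 0.0536) in DKO minus Irf5-KO cells, a call gained without replicate 3 of DKO in either condition (-0.56 with CpG-B and -0.49 unstimulated), replicate 1 of Irf5-KO with CpG-B (-0.50) or replicate 1 of WT with CpG-B (-0.43), and -0.32 ± 0.15 (adjusted p = 0.202) in Lyn-KO minus WT cells. Asns gave -0.11 ± 0.16 and 0.09 ± 0.16 (adjusted p = 0.729 and 0.792), and Chac1 gave -0.06 ± 0.22 in both (adjusted p = 0.898 and 0.915). The other members were not called either: Ddit3 gave -0.26 ± 0.12 in DKO minus Irf5-KO and -0.22 ± 0.12 in Lyn-KO minus WT cells, Atf4 gave 0.08 ± 0.08 in both, and Sesn2 gave 0.20 ± 0.08 and -0.03 ± 0.08. Of 9 B lineage markers, 5 were higher and 0 lower in DKO minus Irf5-KO cells (median 1.675), and 4 and 0 in Lyn-KO minus WT cells (median 1.304). Their unstimulated mean was -1.95 to -1.22 in DKO, -1.90 to -1.69 in Lyn-KO, 1.70 to 2.03 in Irf5-KO and 1.09 to 1.61 in WT cells. The part of these cells in the changed responses was not tested.

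**Figure D4:**
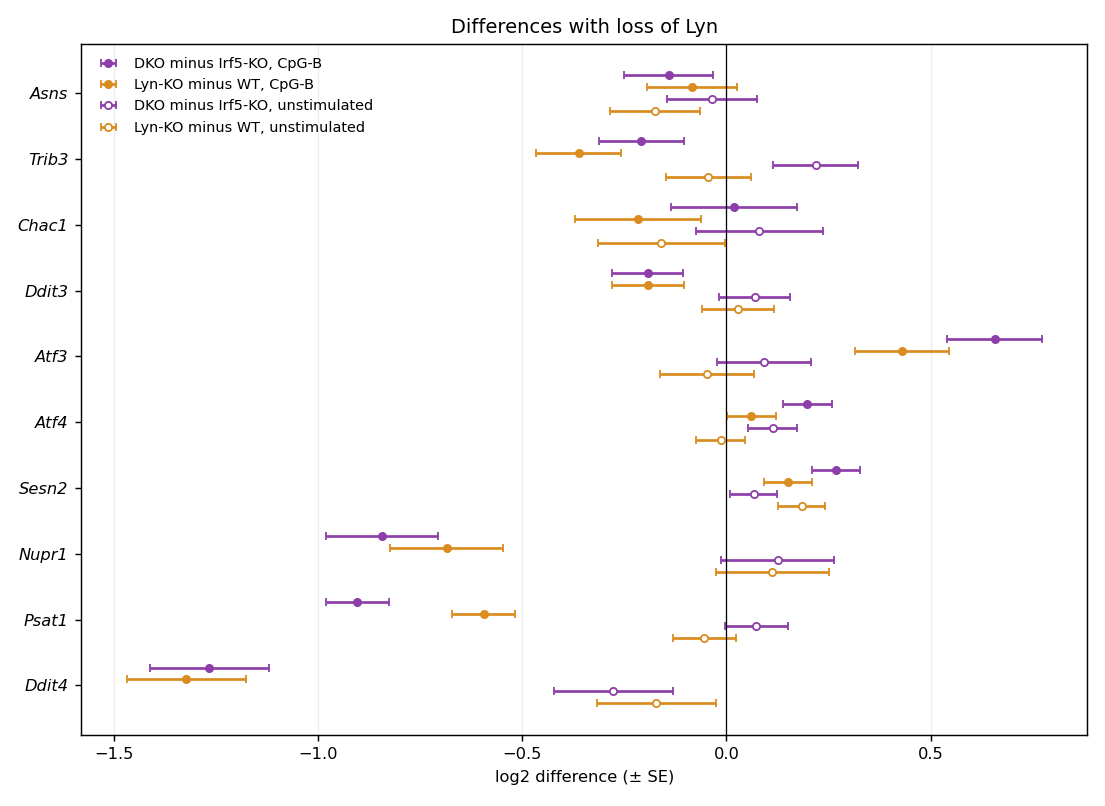
Differences with loss of Lyn (log2, horizontal axis, ± SE of the limma fit, 3 arrays per group) for DKO minus Irf5-KO and Lyn-KO minus WT cells, filled with CpG-B and open without stimulation. With CpG-B, Ddit4 lies at -1.27 and -1.32, Psat1 at -0.90 and -0.59 and Nupr1 at -0.84 and -0.69, while Atf3 lies at 0.66 and 0.43.

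The double knockout against WT after CpG-B put both losses side by side. It uses the same WT arrays as the single knockouts, so its values are given only next to theirs. All 10 genes were called, 7 higher and 3 lower (44.8% of all features called, 24.9% higher and 19.9% lower). Asns was at 0.97 in DKO, -0.08 in Lyn-KO and 1.11 in Irf5-KO cells relative to WT. In the same order Trib3 was at 0.44, -0.36 and 0.65, Chac1 at 0.46, -0.22 and 0.44, and Ddit3 at 0.33, -0.19 and 0.52. Atf4 was at 0.41, 0.06 and 0.21, Sesn2 at 0.46, 0.15 and 0.19, and Atf3 at 0.52, 0.43 and -0.13. Nupr1 was at -3.89, -0.69 and -3.05 in the same order, a 14.8-fold fall in DKO cells. Psat1 was at -0.40 in DKO, -0.59 in Lyn-KO and 0.51 in Irf5-KO cells, although the second probe gave -0.27 ± 0.14 (adjusted p = 0.128) in DKO cells. Ddit4 was at -0.70, -1.32 and 0.56. The DKO call for Chac1 (0.46, adjusted p = 0.0218) ended without replicate 2 or 3 of the WT arrays or replicate 3 of the DKO arrays (0.32 to 0.42).

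Other genes of the pathway were grouped into lists by role. In WT cells, where CpG-B called 31.2% of all features higher and 37.2% lower, of 13 eIF2alpha kinases and subunits of eIF2, eIF2B and the eIF2alpha phosphatase, 6 rose and 4 fell (median 0.08). Eif2ak2, which encodes the RNA-activated kinase PKR, rose by 4.05 ± 0.08. Eif2ak3, which encodes the endoplasmic reticulum kinase PERK, fell by 1.91 ± 0.08, and Eif2ak4, which encodes the amino acid sensor GCN2, fell by 1.73 ± 0.07. The phosphatase subunit genes Ppp1r15a and Ppp1r15b rose by 1.67 ± 0.07 and 1.96 ± 0.08. Of 6 bZIP partners of ATF4, 5 rose, among them Jdp2 by 2.97 ± 0.09 and Cebpb by 1.47 ± 0.14. Genes downstream went both ways: of 12 other reported ATF4 or CHOP targets 5 rose and 6 fell (median -0.16), and of 20 aminoacyl-tRNA synthetases 7 rose and 4 fell (median 0.01). The tRNA synthetase genes Aars and Wars rose by 1.31 ± 0.05 and 1.42 ± 0.06, whereas the target Herpud1, of endoplasmic reticulum degradation, fell by 1.61 ± 0.08.

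The counts after loss of Irf5 with CpG-B stand beside 16.8% of all features higher and 14.7% lower in DKO against Lyn-KO cells, and 14.4% higher and 11.1% lower in Irf5-KO against WT cells. Of the 12 other ATF4 or CHOP targets measured, of 14 listed, 9 were higher and 0 lower in Irf5-KO than in WT cells (median 0.41), and 8 and 0 in DKO against Lyn-KO cells (median 0.44). Gdf15, a secreted stress hormone, was at 1.42 in DKO against Lyn-KO and 1.43 in Irf5-KO against WT cells. Cdkn1a, a cell cycle inhibitor, was at 1.57 and 1.17, the autophagy receptor Sqstm1 at 1.24 and 0.70, Herpud1 at 0.97 and 0.77, and Eif4ebp1, a brake on translation, at 0.33 in both. Of 10 genes of serine, glycine and one-carbon synthesis measured, of 12 listed, 6 were higher and 0 lower in Irf5-KO against WT cells (median 0.39). In DKO against Lyn-KO cells 3 were higher and 1 lower (median 0.20). The mitochondrial folate enzyme gene Mthfd2 was at 0.46 and 0.42. Of 20 tRNA synthetases, 5 were higher and 2 lower in DKO against Lyn-KO cells (median 0.00) and 8 higher and 1 lower in Irf5-KO against WT cells (median 0.12), with Wars at 0.58 and 0.42. Of 11 amino acid transporters 3 were higher and 2 lower (median 0.02), and 5 higher and 2 lower (median 0.20), with Slc38a2 at 0.77 and 0.46. The medians of the synthetases and the transporters in DKO against Lyn-KO cells were near that of all features, 0.01.

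The upstream list of 13 genes had 2 higher and 2 lower genes in DKO against Lyn-KO cells (median -0.01), and 2 higher and 3 lower in Irf5-KO against WT cells (median 0.01). Eif2ak1, which encodes the haem-regulated kinase HRI, was lower in both, at -0.70 and -0.64. Ppp1r15a was higher in DKO against Lyn-KO cells (0.51) and lower in Irf5-KO against WT cells (-0.32). Of the 6 bZIP partners, Jdp2 was at 1.11 and 0.43, Atf5 at 0.58 and 0.31, and Batf3 at -1.31 and -0.86. Batf3 is also among the markers of type 1 conventional dendritic cells, and is counted as lower there too. Chaperones of the endoplasmic reticulum, which the XBP1 and ATF6 branches control, were higher in part: 10 of 16 in DKO against Lyn-KO cells (median 0.26) and 8 of 16 in Irf5-KO against WT cells (median 0.21), none lower. Over the 72 genes of the other 6 lists, 23 were called higher in DKO against Lyn-KO cells and 32 in Irf5-KO against WT cells, with 21 in both, which is 91.3% of the first list and 65.6% of the second. Called lower were 8 in each, with 6 in both (75% of each). When only the 6 arrays of Irf5-KO and WT cells with CpG-B were fitted, 3 of 20 tRNA synthetases and 2 of 16 chaperones were called. The chaperone count of 8 fell to 4 when replicate 2 of Irf5-KO or replicate 1 of WT was left out, and to 5 without replicate 3 of the Irf5-KO arrays. The tRNA synthetase count of 9 fell to 5 without replicate 1 or 2 of the Irf5-KO arrays, and the transporter count of 7 to 4 without replicate 2 of the WT arrays. In DKO against Lyn-KO cells, the count of 4 in the serine list fell to 1 without replicate 2 of the DKO arrays, and to 2 without replicate 1 or 2 of the Lyn-KO arrays.

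**Figure D5:**
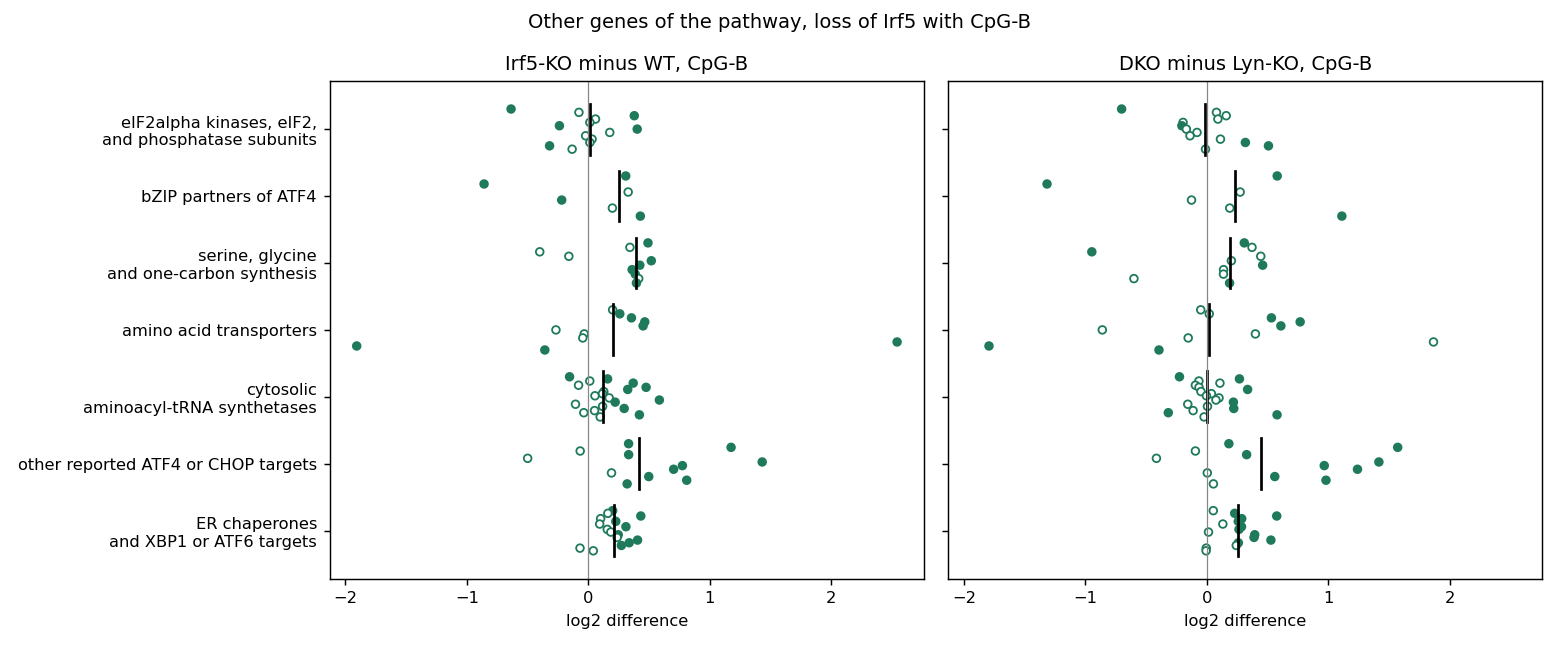
Differences with loss of Irf5 after CpG-B (log2, horizontal axis) for the genes of 7 pathway lists, Irf5-KO minus WT at left and DKO minus Lyn-KO at right. Each circle is a gene, filled where the adjusted p is at most 0.05, and the vertical line is the median of the list; ATF4 or CHOP targets have medians of 0.41 and 0.44, and upstream genes have medians of 0.01 and -0.01.

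With loss of Lyn after CpG-B, most measured genes of the serine pathway to which Psat1 belongs were lower. The counts below stand beside 18.1% of all features higher and 14.9% lower in DKO against Irf5-KO cells. In Lyn-KO against WT cells 13.9% were higher and 11.2% lower. Of the 10 genes of serine, glycine and one-carbon synthesis, 6 were lower and 1 higher in DKO than in Irf5-KO cells (median -0.90, against 0.06 over all features), and 7 were lower and 1 higher in Lyn-KO than in WT cells (median -0.89, against 0.05). Phgdh, the entry enzyme of serine synthesis, was lower by -1.33 ± 0.12 in DKO against Irf5-KO and by -1.11 ± 0.12 in Lyn-KO against WT cells. Psph, the last enzyme, was at -1.32 ± 0.09 and -1.07 ± 0.09. The one-carbon enzyme genes Shmt1, at -2.28 and -1.27, Mthfd1l, at -1.14 and -0.83, and Shmt2, at -0.66 and -0.45, were lower as well. Mthfd2 was higher, at 0.27 and 0.23, and the call in Lyn-KO against WT cells ended without replicate 2 of the WT (0.20) or replicate 1 of the Lyn-KO arrays (0.21). In the same comparisons other ATF4 or CHOP targets were 6 higher and 2 lower of 12 (median 0.27), and 5 higher and 0 lower (median 0.25), with Sqstm1 at 1.30 and 0.76 and Gdf15 at 1.15 and 1.16. Of the upstream genes 2 were higher and 4 lower, and 0 higher and 5 lower, of 13, although 2 were called in Lyn-KO against WT cells when only those groups were fitted, with the eIF2B subunit gene Eif2b3 at -1.20 and -0.63. The B lineage markers given above moved with the same comparisons, 0 higher and 9 lower of 9 in DKO against Irf5-KO and 0 higher and 5 lower in Lyn-KO against WT cells. Plasmacytoid markers were 6 higher and 0 lower of 9 in each. Basophil or mast cell markers were 5 higher and 0 lower of 7 in DKO against Irf5-KO cells, and 0 higher and 2 lower in Lyn-KO against WT cells. Neutrophil markers, 9 measured of 10 listed, were 2 higher and 5 lower in DKO against Irf5-KO cells, and 1 higher and 1 lower in Lyn-KO against WT cells. The part of these cells was not tested.

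The genes whose levels most resembled Asns were found by correlating each named gene with Asns over the 24 arrays, after the mean of each condition was taken out. These correlations describe the arrays, which share the 4 genotypes, and carry no p. The unstimulated arrays in which Asns and Trib3 were first seen to be higher without Irf5 are among the 24, so the likeness of Trib3 to Asns restates that choice in part. Trib3 and Chac1 held ranks 2 and 4 among all named genes, at 0.925 and 0.890, and Ddit3 was at 0.792. Eif4ebp1, itself an ATF4 target, was first at 0.943, and the 8 most alike genes outside the group also held Aldh18a1, an enzyme of proline synthesis, at 0.861, Cars, a tRNA synthetase, at 0.883, and Creld2, a chaperone of the endoplasmic reticulum, at 0.868. Srp54a and Srp54c, near-identical copies of a signal recognition particle subunit, were at 0.910 and 0.877, Cfap45 at 0.883 and Gstt1 at 0.843. Atf4 reached 0.680, Psat1 0.618, Ddit4 0.364 and Sesn2 0.317, while Atf3 was at 0.003 and Nupr1 at -0.474. Eif4ebp1 averaged 3.08 ± 0.08 in DKO, 2.75 ± 0.12 in Lyn-KO, 3.13 ± 0.04 in Irf5-KO and 2.80 ± 0.13 in WT cells with CpG-B (SD, n = 3 each). Unstimulated, it averaged 3.60 ± 0.07, 3.19 ± 0.09, 3.58 ± 0.05 and 3.16 ± 0.08 in the same order, so its CpG-B levels lay below its unstimulated ones in every genotype, the opposite of Asns.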

How the data were processed

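RNA of 24 samples, 8 groups of 3, was hybridised in 1 colour (Cy3), 1 sample per array. The deposited intensity values are the processed signals of Agilent Feature Extraction 10.7.3.1, background-subtracted but not normalised between arrays, per the file headers, on a design annotated on mm9. The deposited log2 value table of the authors differed from them, after shifting each array and centring each probe, by at most 0.0238 for 95% of 13235 probes, and its column medians ran between -0.273 and 0.375. It served as an alternative, and how its centring was chosen stays unknown.

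Here log2 of the signal minus the 75th percentile of the array was used. Control spots and 4351 flagged spot values were left out, and spots of 1 probe were averaged. Of 55681 probes, 26756 were named through their accession in RefSeq, and 26640 were kept because every array of some group, 3 in number, had them well above background. A gene was read from its brightest probe, which left 20209 features, 12645 of them named. The model had 1 mean for each group over the 24 arrays and was fitted by limma (version 3.58.1, under R 4.3.3), with 2-sided p-values adjusted by Benjamini-Hochberg over all features at a threshold of 0.05. The number of arrays limits the precision. No spot of the 24 arrays was saturated. The procedure was tested on simulated data.

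The members and lists were chosen with earlier results of these data known. The rule for naming genes takes all 10 genes in each comparison. Genes of the lists are named beside the count of their list, and outside them only Irf5, Lyn and the 8 genes most correlated with Asns. Alternatives were other normalisations, filters, probe summaries, variance priors and sets of arrays, the replicate number as a block, and each array left out. Deviations of arrays with the same replicate number, which is also the slide, correlated at over 0.1 in 11 of 12 pairs of CpG-B and unstimulated arrays (0.0824 to 0.28; all pairs of WT, Irf5-KO and Lyn-KO cells), and in 3 of 15 pairs of genotypes with CpG-B (-0.0842 to 0.181). The numbers were therefore taken to pair the arrays of these 3 responses and not those of different genotypes. The main fit left this pairing out. The block is the replicate number, shared by all genotypes and both conditions, so the blocked p is not from a test paired within a genotype. No such paired test was run. The blocked p stands beside a response where it changes the call. The change of the response with Irf5 loss was not tested.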

Additional observations from a re-analysis of the deposited data

Results flagged for a closer look

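The response to CpG-B differed between genotypes with and without Lyn for 4 of the 10 genes in DKO minus Irf5-KO cells (17.6% of all features called). In Lyn-KO minus WT cells it differed for 3 of the 10 (11.1%). Both counts are from the test of the difference itself, in limma with adjustment over all features. In DKO minus Irf5-KO cells it differed by -0.9898 for Ddit4, -0.9696 for Nupr1, -0.9772 for Psat1 and 0.5644 for Atf3 (log2). In Lyn-KO minus WT cells it differed by -1.1509 for Ddit4, -0.7976 for Nupr1 and -0.5403 for Psat1. The Atf3 call ended when any 1 of 4 arrays was left out. It also ended in limma after quantile normalisation (adjusted p = 0.0653) and when dim probes were kept (adjusted p = 0.0583).

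Of the same genes, Ddit4, Psat1 and Nupr1 also moved in opposite directions in other pairs of comparisons, on every slide. Except for the 2 quantities named as tested, these differences were not tested. The response of Ddit4 was above 0 in Irf5-KO cells and below 0 in Lyn-KO cells, a difference of 1.593 that was not tested, and that of Psat1 was 0.7109 apart in the same way. The rises in Irf5-KO cells, 0.35 for Ddit4 and 0.22 for Psat1, lost their calls under several alternatives. The second Psat1 probe gave 0.05 there, so an opposite direction in Irf5-KO cells is not secure for either gene. Against DKO cells the response of Irf5-KO cells was 0.9898 higher for Ddit4 and 0.9772 higher for Psat1, which are the quantities tested above with the sign turned. Nupr1 stood above its comparison group unstimulated and below it with CpG-B, so that the difference with CpG-B minus that without was -3.77 for DKO against Lyn-KO, -4.5676 for DKO against WT and -3.598 for Irf5-KO against WT. Psat1 in DKO against WT cells did the same, with -0.8067.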

How the results depend on the processing

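Of 110 tested results on the 10 genes 83 were called, 71 of these stayed called under all 11 other settings and without each of the 24 arrays in turn, 12 lost the call under at least 1 of them, and 6 of 27 others gained one; none reversed. In Irf5-KO against WT cells with CpG-B, 5 of 10 genes were called when only those 2 groups were fitted, against 9 with all arrays. Of all 20209 features, 3671 were called in that fit, against 5154 with all arrays. That fit has fewer samples, and Atf4, Chac1, Sesn2 and Ddit4 kept their values and lost the call. The number of genes called, each array left out in turn, ran between 8 and 8 for the response in WT, 8 and 10 in Irf5-KO, 10 and 10 in Lyn-KO and in DKO cells. It ran between 6 and 9 for Irf5-KO against WT, 5 and 5 for Lyn-KO against WT, 9 and 10 for DKO against WT, 8 and 9 for DKO against Lyn-KO, 5 and 6 for DKO against Irf5-KO, and 3 and 4 or 3 and 5 for the change of the response in Lyn-KO or in DKO cells. With the replicate number as a block, 8 genes were called in Irf5-KO against WT, 6 in Lyn-KO against WT and 8 in DKO against Lyn-KO cells. In the same order 5734, 5800 and 6889 of all features were called. Under that block, Chac1 in Irf5-KO against WT (adjusted p = 0.0522) and the Ddit4 response in Irf5-KO cells (adjusted p = 0.0542) lost the call, and Sesn2 in Lyn-KO against WT (0.032) and the Atf3 change in Lyn-KO minus WT (0.0113) gained one; it changed no other call of the 10 genes. After normexp with quantile normalisation, Atf4 in DKO against Irf5-KO cells was 0.12, Psat1 in the Irf5-KO response 0.12 and Ddit4 there 0.14; quantile normalisation alone gave 0.08 for Psat1 and 0.17 for Ddit4, and the cause was not tested. Of 35 list counts 10 moved by over 1.5 times: the upstream list in Irf5-KO against WT went to 3 of 5 genes, and the transporters to 4 of 7, with only those groups, the upstream list in Lyn-KO against WT cells to 2 of 5 likewise, the tRNA synthetases in DKO against Lyn-KO cells to 4 of 7 after normexp with quantile normalisation, and the other ATF4 or CHOP targets in Lyn-KO against WT cells to 3 with only those groups and 8 with the block, against 5. Of 95 named pathway results called, 82 stayed called throughout. Probes near background limit the pathway lists, not the 10 genes.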
